A study of Homo sapiens with 6 samples.

Results

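Chromosome arm segment 19p13 was described here as the stretch chr19:1-19700000 of hg19, and its members were every HuR interval of either strand lying wholly inside it. It held 1942 of the 186157 sites of replicate 1, 3112 of 405048 in replicate 2 and 4045 of 550681 in replicate 3. A combined list of the authors placed 4995 of its 658853 sites there, and the same list limited by the authors at p 0.05 placed 2969 of 373845 there. No site of any list crossed the end of the segment. The last combined site inside, chr19:19698406-19698440 on the minus strand, had a LOD score of 6.75, and the first one outside, chr19:19700256-19700295 on the same strand, had 7.05.

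The sites came from DO-RIP-seq, in which RNA in a cell lysate is digested to fragments before an RNA-binding protein is immunoprecipitated and the fragments that come with it are sequenced. All samples came from HEK293, a long-established cell line of human embryonic kidney origin, and the labels name no treatment. The HuR group was 3 immunoprecipitations with the anti-HuR antibody 3A2, and the control group was 3 with normal mouse serum, whose values were not analysed here. Digested lysate was pooled before it was divided over the immunoprecipitations, so the SD over the 3 HuR replicates may cover technical spread only. Each site carries a LOD score computed by the authors, and sequencing depth is unknown. The score takes different levels in each list, so it was read as a percentile within its own list, from 0 for the lowest to 100 for the highest.

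HuR, the product of ELAVL1, is a widely expressed RNA-binding protein that prefers U-rich and AU-rich RNA. It is best known for binding introns and 3′ untranslated regions and for stabilising messages that many cells keep short-lived. The arm 19p13 is known as one of the most gene-dense and GC-rich parts of the human genome, with many compact genes on both strands, clusters of KRAB zinc-finger genes, and ELAVL1 itself. The sites below are placed by position alone, because gene annotation of hg19 was not used here.

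HuR sites were denser on 19p13 than on the rest of the genome in each replicate, but less dense than on the rest of chromosome 19 or on chromosome 17. The arm held 98.6, 158.0 and 205.3 sites per Mb in replicates 1, 2 and 3, against 59.9, 130.8 and 177.8 elsewhere. The mean was 154 ± 53.5 sites per Mb on the arm and 123 ± 59.4 elsewhere (SD, n = 3). Lists differed in length more than the arm differed from the rest, so ratios were taken within each replicate. The arm's density was 1.64, 1.21 and 1.15 times that of the rest of the genome, a mean ratio of 1.34 ± 0.269 (SD, n = 3). Replicate 1, the shortest list, set the highest of these, and without it the mean ratio was 1.18. An exact two-sided sign-flip permutation test over the 3 replicates gave p = 0.25, the smallest value it can give, and the same holds below for any measure that moved one way in all 3.

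The rest of chromosome 19, which includes the centromere, had 110.1, 204.0 and 267.5 sites per Mb, and the arm's ratio to it was 0.813 ± 0.072 (SD, n = 3). Against chromosome 17, another gene-rich chromosome, the ratio was 0.681 ± 0.0792 (SD, n = 3). Against chromosomes 4 and 13, which are gene-poor, it was 1.99 ± 0.575 (SD, n = 3). The arm therefore lay between the gene-poor and the other gene-rich stretches in all 3 replicates. Measured only against 1-Mb bins that held a site, the ratios to the rest of the genome were 1.53, 1.13 and 1.08.

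Cut into bins of 1 Mb numbered from the telomere, the arm's density varied several-fold, and the same bins were high and low in every replicate. Bin 10, chr19:9000001-10000000, was the densest with 248, 372 and 430 sites in replicates 1, 2 and 3. Relative to the arm's own mean density, that is 2.32 ± 0.213 (SD, n = 3). Bin 13, chr19:12000001-13000000, came next with 169, 296 and 391 sites, a relative density of 1.83 ± 0.102 (SD, n = 3). Bin 12, chr19:11000001-12000000, held 129, 232 and 332 sites, a relative density of 1.46 ± 0.154 (SD, n = 3). These 3 bins held 28.1%, 28.9% and 28.5% of the arm's sites. The 4 neighbouring bins from 10 to 13 held 34.8%, 35.5% and 34.8%.

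The sparsest bins lay on either side of that stretch. Bin 7, chr19:6000001-7000000, held 31, 60 and 92 sites, a relative density of 0.381 ± 0.0668 (SD, n = 3). Bin 8, chr19:7000001-8000000, held 42, 73 and 112 sites. Bin 14, chr19:13000001-14000000, held 53, 76 and 109 sites. All 3 were below the density of the rest of the genome in every replicate. The densest full bin had 8.0, 6.20 and 4.67 times the sites of the sparsest, with an SD of 1.67 (n = 3). From the relative densities averaged over replicates, the ratio was 6.09. In bins of 500 kb the ratio found that way was 21.8. The last 0.7 Mb, bin 20, was left out of this ranking for its length, and had a relative density of 1.58 ± 0.153 (SD, n = 3).

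**Figure D1:**
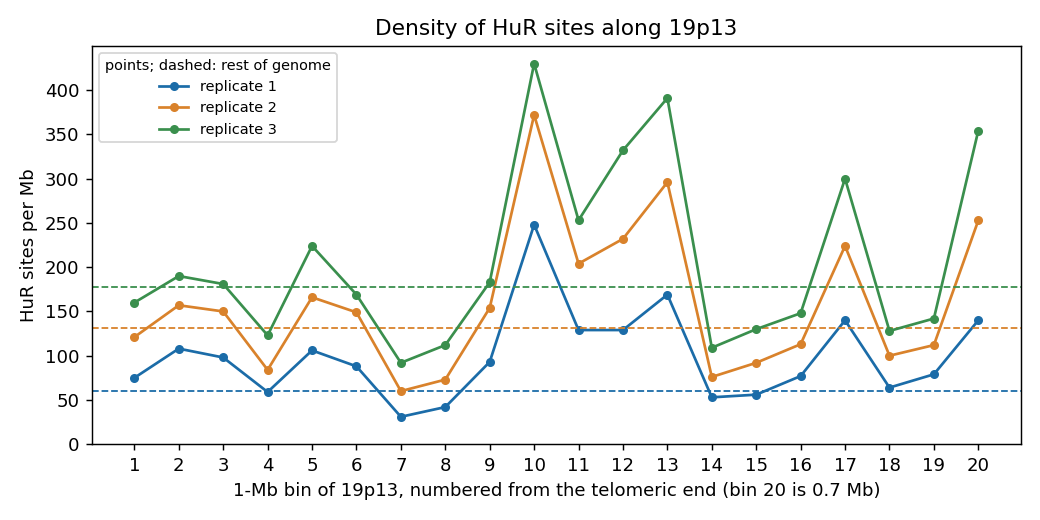
HuR sites per Mb (y axis) in each 1-Mb bin of 19p13 (x axis, bin number from the telomere), with 1 line of points per replicate and a dashed line at that replicate's density over the rest of the genome. All 3 lines peak at bin 10 with 248, 372 and 430 sites and are lowest at bin 7 with 31, 60 and 92.

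The profile of density over the 20 bins had a Spearman coefficient of 0.986 between replicates 1 and 2, 0.981 between 1 and 3, and 0.997 between 2 and 3. These describe bins that share libraries and genes and carry no p-value. Of the 20 bins, 10 were denser than the rest of the genome in all 3 replicates, 5 were sparser in all 3, and 5 differed between replicates. Among the 19 full bins, 17 exceeded the median of all other occupied 1-Mb bins in replicate 1, 13 in replicate 2 and 11 in replicate 3. Few reached the top 10% of those bins, with 2, 1 and 0 bins above it. Bin 10 ranked at percentile 98.3, 93.0 and 89.5 among them. Without bin 10 the arm's mean density ratio to the rest of the genome was 1.24. Without bins 10, 12 and 13 the ratios were 1.39, 1.01 and 0.974. These bins were picked as the densest and dropped from the arm only, so both falls follow from the choice. They do not show that the excess was unusually concentrated. The SD over full bins was 52.6%, 52.6% and 49.1% of their mean on the arm. Over the other occupied bins of the genome, pooled over all chromosomes, it was 103%, 100% and 93.8%. No other single stretch was measured this way, so these values do not show the arm to be unusually even.

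Although sites were more frequent per Mb, neighbouring sites on the same strand lay farther apart on the arm. The median gap was 1392.5 nt in replicate 1, 815 nt in replicate 2 and 745 nt in replicate 3, against 850, 455 and 420 nt elsewhere. The ratio was 1.64, 1.79 and 1.77, a mean of 1.73 ± 0.0837 (SD, n = 3). Gaps were also longer than on the rest of chromosome 19 (ratio 1.92 ± 0.0457, SD, n = 3), on chromosome 17 (1.74 ± 0.11, SD, n = 3) and on chromosomes 4 and 13 (1.62 ± 0.11, SD, n = 3). Short gaps under 100 nt made up 11.03%, 14.7% and 14.8% of gaps on the arm and 14.3%, 19.8% and 20.3% elsewhere. Gaps over 10 kb made up 22.9%, 15.4% and 14.0% on the arm and 14.5%, 7.15% and 6.56% elsewhere. Short gaps were rarer and long gaps commoner on the arm in all 3 replicates.

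**Figure D2:**
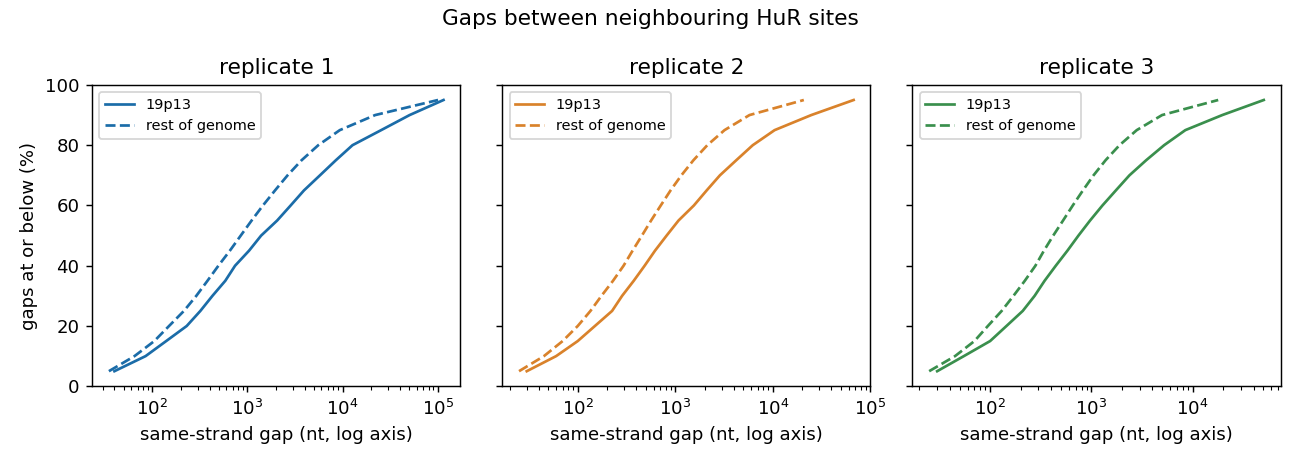
Share of same-strand gaps between neighbouring sites (y axis, percent) at or below a given length (x axis, nt, log axis), with 1 panel per replicate, a solid line for 19p13 and a dashed line for the rest of the genome. The solid line lies to the right in the middle of each panel: the arm's median gaps are 1392.5, 815 and 745 nt, those elsewhere 850, 455 and 420 nt.

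More places on the arm held a site than elsewhere in the genome, and each held fewer sites. Counted in windows of 10 kb on each strand, 17.9%, 22.1% and 27.1% of the arm's windows held a site, against 8.20%, 11.3% and 14.3% elsewhere. The ratio was 2.01 ± 0.155 (SD, n = 3). A window with a site held 2.75, 3.58 and 3.79 sites on average, against 3.65, 5.80 and 6.22 elsewhere, a ratio of 0.66 ± 0.0798 (SD, n = 3). Windows with at least 10 sites made up 3.39%, 7.59% and 8.82% of occupied windows on the arm and 8.15%, 20.4% and 22.7% elsewhere.

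On window occupancy the arm resembled the other gene-rich stretches, while on sites per occupied window it stood below them. The share of occupied windows was 1.09 ± 0.0278 times that of chromosome 17 and 1.15 ± 0.0303 times that of the rest of chromosome 19 (SD, n = 3). Sites per occupied window were 0.627 ± 0.0675 times those of chromosome 17 and 0.709 ± 0.0513 times those of the rest of chromosome 19 (SD, n = 3). The gene-poor chromosomes 4 and 13 had 3.31, 5.42 and 5.86 sites per occupied window, more than the arm in each replicate. Sites per occupied window were thus lowest on the arm of these 5 stretches of the genome in all 3 replicates.

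**Figure D3:**
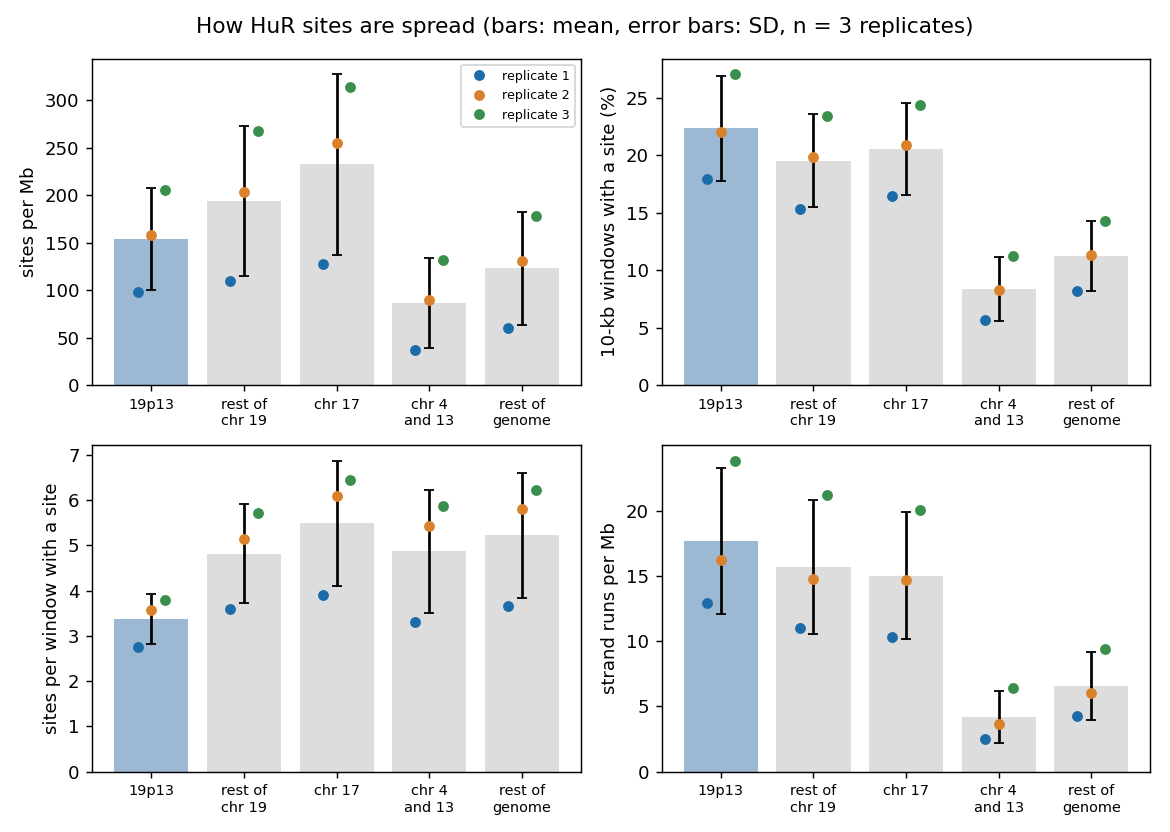
Bars give the mean over 3 replicates, error bars the SD and points each replicate, for 19p13 and 4 stretches compared with it (x axis); the 4 panels plot sites per Mb, percent of 10-kb windows with a site, sites per window with a site, and strand runs per Mb (y axes). The arm has the highest occupancy (17.9%, 22.1% and 27.1%) and the fewest sites per occupied window (2.75, 3.58 and 3.79).

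Single sites and short groups were correspondingly common. A site with no neighbour on its strand within 1 kb made up 37.8%, 27.8% and 25.7% of sites on the arm, against 29.6%, 17.1% and 15.8% elsewhere. The difference was 9.59 ± 1.19 percentage points (SD, n = 3). Sites joined by gaps of up to 1 kb formed groups of 1.79, 2.16 and 2.25 sites on average, against 2.13, 3.05 and 3.23 elsewhere. The largest such group on the arm had 25, 30 and 25 sites.

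Consecutive sites along the arm switched strand often. A run of neighbouring sites on one strand averaged 7.62, 9.76 and 8.62 sites, against 13.9, 21.8 and 18.98 elsewhere, a ratio of 0.483 ± 0.0551 (SD, n = 3). The ratio was 0.717 ± 0.0408 against the rest of chromosome 19 and 0.575 ± 0.0337 against chromosome 17 (SD, n = 3 for each). On the arm there were 12.9, 16.2 and 23.8 runs per Mb, against 4.30, 6.01 and 9.37 elsewhere, 2.75 ± 0.238 times as many (SD, n = 3). The number of runs per Mb was 1.18 ± 0.0773 times that of chromosome 17 and 1.13 ± 0.04 times that of the rest of chromosome 19 (SD, n = 3). The median run was 3 sites in every replicate on the arm and 5, 4 and 3 sites elsewhere, so the median differed less than the mean and did not differ in replicate 3. Long runs still occurred. In the combined list the longest had 116 sites, all on the minus strand between chr19:12570456 and chr19:12716005, and the next had 102 plus-strand sites at chr19:9434586-9488020.

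Strand use differed among bins far more than over the arm as a whole. The plus strand held 47.1%, 48.0% and 48.6% of the arm's sites, against 51.1%, 50.8% and 50.8% elsewhere. By bin, 9 of the 20 had a plus-strand majority in all 3 replicates, 8 had a minus-strand majority in all 3, and 3 were mixed. Bin 16, chr19:15000001-16000000, was the most one-sided, with 5.19%, 5.31% and 9.46% of sites on the plus strand, a mean of 6.65% ± 2.43 (SD, n = 3). Bin 7 had 18.5% ± 4.80 (SD, n = 3) on the plus strand. Bin 14 was the most plus-sided at 74.1% ± 1.98 (SD, n = 3). Overlap between sites on opposite strands was rare, at 2, 16 and 42 sites in replicates 1, 2 and 3, or 0.103%, 0.514% and 1.04%, against 0.234%, 0.446% and 0.555% elsewhere. Replicate 3 was the highest and replicate 1 the lowest, and the direction against the rest differed between replicates.

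Some stretches held no site. The longest in the combined list was chr19:13317796-13841955 in bin 14, 524 kb without a site on either strand. It lay inside the empty stretches of replicates 1 and 2 there, which ran to 577 and 561 kb. A second, chr19:15773566-16023470, was 250 kb long in the combined list and began in the one-sided bin 16. In replicates 1 and 2 the empty stretch around it was 655 kb long in each, and in replicate 3 it was 250 kb. The most telomeric combined site began at chr19:61336.

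Site width gave no difference in its median. Sites had a median width of 45, 55 and 50 nt in replicates 1, 2 and 3, both on the arm and elsewhere. Mean widths were 48.4, 62.8 and 56.7 nt on the arm and 49.1, 65.4 and 57.7 nt elsewhere, a mean difference of -1.41 nt. Site ends lie on a 5-nt grid, so differences in a median below 5 nt are not resolved. By bin, median widths ran from 40 to 65 nt. Bin 10 had the widest mean of these medians, 56.7 ± 10.4 nt (SD, n = 3), and bin 8 the narrowest, 41.7 ± 2.89 nt (SD, n = 3). The widest combined site, chr19:9636906-9637665 on the minus strand, was 760 nt and lay in bin 10.

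The median LOD score of the arm's sites was near the middle of each replicate list, and the lowest and highest deciles of these lists each held more than 10% of them. Replicates 1, 2 and 3 had median percentiles of 52.1, 50.5 and 51.4, which average 51.3 ± 0.786 (SD, n = 3). On the rest of chromosome 19 it was 53.4, 53.2 and 54.3, higher than on the arm in each replicate. The lowest decile of each list held 11.2%, 12.9% and 12.9% of the arm's sites. On the rest of chromosome 19 it held 8.81%, 10.1% and 10.9%, and on chromosome 17 it held 9.97%, 11.3% and 11.5%. The highest decile held 10.7%, 10.5% and 13.5% of the arm's sites. That was below the 11.4%, 12.8% and 14.0% on the rest of chromosome 19, while chromosome 17 had 10.6%, 11.4% and 12.2%. In the combined list the lowest and highest deciles held 14.2% and 13.3% of the arm's sites, and decile 4 held 7.61%. The lowest and highest held 10.6% and 9.97% elsewhere, 12.2% and 13.2% on the rest of chromosome 19, and 11.9% and 12.5% on chromosome 17. The p-filtered list differed at the bottom: its lowest decile held 8.62% on the arm against 10.0% elsewhere. Its highest held 11.7% against 9.99%. The top 1% of each replicate list held 30, 30 and 66 of the arm's sites, or 1.54%, 0.964% and 1.63%, so replicate 2 did not share the excess at the very top. The rest of chromosome 19 had 1.06%, 1.41% and 1.59% there, and chromosome 17 had 1.07%, 1.36% and 1.29%. An excess at the very top was therefore not particular to the arm.

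**Figure D4:**
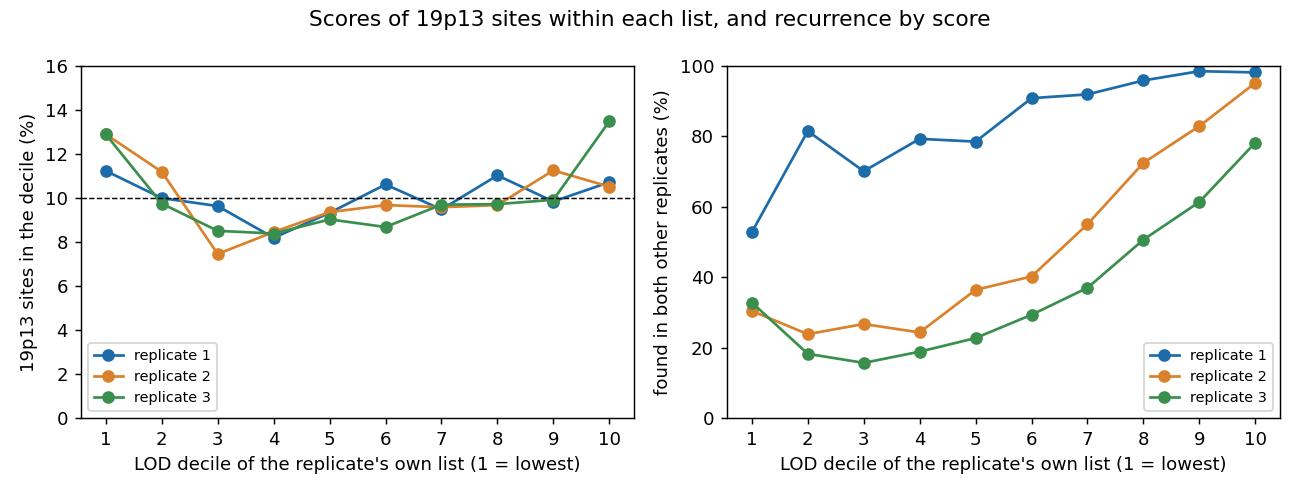
Left, share of each replicate's 19p13 sites (y axis, percent) in each decile of its own list by LOD score (x axis, 1 is lowest), with a dashed line at 10%; right, share of those sites found in both other replicates (y axis, percent). The lowest decile holds 11.2%, 12.9% and 12.9% of sites, and recurrence in the highest decile reaches 98.1%, 95.1% and 78.2%.

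Score also varied along the arm. The mean percentile over replicates was highest in bin 11, chr19:10000001-11000000, at 59.8 ± 2.79 (SD, n = 3). Bin 16 was next at 57.8 ± 6.26 and bin 10 at 56.4 ± 3.76 (SD, n = 3 for each), and these 3 overlap within their spread. Bin 8 was lowest at 40.7 ± 9.25 (SD, n = 3), where replicate 1 had 51.4 and replicates 2 and 3 had 35.1 and 35.6.

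Recurrence of the arm's sites among replicates was below that of the rest when counted from replicate 1 and above it when counted from replicates 2 and 3. Overlap by at least 1 nt with a site on the same strand in both other lists was found for 1625 sites of replicate 1, or 83.7%, where 89.1% of that whole list did so. It was found for 1541 sites of replicate 2, or 49.5%, against 37.8% of the whole list, and for 1563 sites of replicate 3, or 38.6%, against 28.4%. Against the rest of each list the differences were -5.52, 11.8 and 10.4 percentage points, a mean of 5.54 ± 9.61 (SD, n = 3). Against chromosome 17 the mean was 2.18 ± 6.74, and against the rest of chromosome 19 it was 2.95 ± 6.22 (SD, n = 3 for each). These values largely count the same shared places from each list in turn. The whole lists likewise had 165939, 153150 and 156190 recurrent sites. The mean difference from the rest of each list is smaller than its spread, and it was 0.581 between the remaining pair without replicate 1. The exact two-sided sign-flip permutation test gave p = 0.5, but the 3 values are not independent, so it cannot decide the question.

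With similar recurrent counts from each list, the direction followed the arm's share of each list. That share was 1.04% in replicate 1, against 0.768% and 0.735% in replicates 2 and 3. With each list limited to its 186157 highest-scoring sites, recurrence on the arm was 43.9%, 56.3% and 55.1%. Elsewhere it was 50.4%, 46.8% and 46.9%, so replicate 1 stayed below. When at least 50% of each interval had to be shared, all 3 replicates were above the rest, with 58.9%, 38.5% and 29.4% against 52.9%, 25.7% and 19.3%. The mean difference was then 9.61 ± 3.45 percentage points (SD, n = 3), again over values that are not independent. Against chromosome 17 it was 5.39 ± 3.11, and against the rest of chromosome 19 it was 9.83 ± 1.31 (SD, n = 3 for each). No other list held 137 of replicate 1's sites, 381 of replicate 2's and 1291 of replicate 3's, or 7.05%, 12.2% and 31.9%, against 4.34%, 12.8% and 35.0% elsewhere.

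On the arm as elsewhere, recurrent sites scored higher than the others. Arm sites found in both other replicates had a median percentile of 57.6, 72.4 and 75.4 in replicates 1, 2 and 3, and the others had 23.8, 33.5 and 40.1. Elsewhere recurrent sites had 54.2, 76.5 and 76.0 and the others 23.8, 37.4 and 42.2. The 23.8 of replicate 1 is 1 tied score, which was also the lower quartile on the arm and elsewhere. Its match between the arm and the rest therefore reflects ties. In the highest decile of each list, 98.1%, 95.1% and 78.2% of the arm's sites recurred in both others, against 99.4%, 93.0% and 73.7% elsewhere. In the lowest decile, 52.8%, 30.4% and 32.8% did, against 65.9%, 24.2% and 26.4% elsewhere. In replicates 2 and 3 the arm's lowest decile recurred more than its second decile, which had 23.9% and 18.3%. Across sites that 2 lists shared, scores had a Spearman coefficient of 0.581 over 1718 sites for replicates 1 and 2, 0.548 over 1712 for replicates 1 and 3, and 0.681 over 2647 for replicates 2 and 3. Shared sites are not independent replicates, so these are descriptions.

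In the combined list, 1521 of the arm's 4995 sites overlapped a site in all 3 replicate lists, or 30.5%, with a 95% Wilson interval from 29.2 to 31.7 that covers counting error only, where 22.9% of the whole list did. The share was 26.7% on the rest of chromosome 19, 27.6% on chromosome 17 and 19.3% on chromosomes 4 and 13. Another 1222 sites, or 24.5%, were in 2 lists, against 30.0% elsewhere, 1695 or 33.9% were in 1, against 36.2%, and 557 or 11.2% were in none, against 10.97%. The lists differed in how many of these sites they held. Replicate 1 held 35.8% of the arm's combined sites and 25.3% of those elsewhere, replicate 2 held 60.2% and 59.1%, and replicate 3 held 78.2% and 80.2%. Without replicate 1, 51.6% of the arm's combined sites and 51.2% of those elsewhere were in both remaining lists, so the arm's excess was lost. It was 32.2% against 23.6% without replicate 2, and 32.0% against 23.6% without replicate 3.

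**Figure D5:**
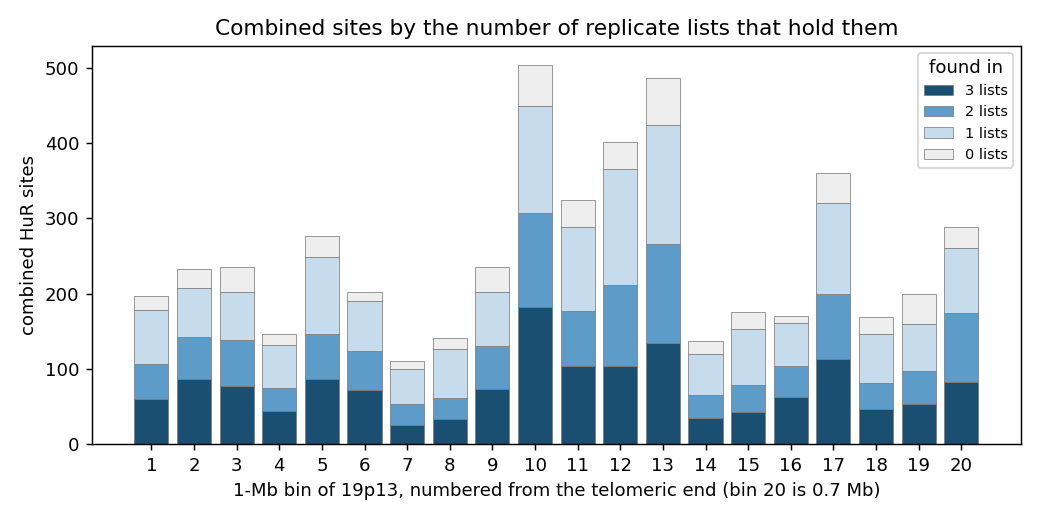
Number of combined HuR sites (y axis) in each 1-Mb bin of 19p13 (x axis, bin number from the telomere), stacked by how many of the 3 replicate lists hold them. Of all 4995 sites, 1521 are in 3 lists, 1222 in 2, 1695 in 1 and 557 in none.

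The share in all 3 lists was above the whole list's 22.9% in 19 of the 20 bins. It ran from 22.5% in bin 7 to 37.3% in bin 2, chr19:1000001-2000000. Bins 16 and 10 followed bin 2 with 36.8% and 36.3%. Combined score and width rose with the number of lists: the median LOD was 3.05 in none, 4.99 in 1, 7.87 in 2 and 11.2 in 3, and the median width was 25, 40, 55 and 80 nt. The combined score is made from the same libraries, so this describes the list and is no independent support.

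Counted by bases, 275.3 kb of the arm's 2 strands were called in at least 1 replicate. Of these, 79.7 kb or 28.9% were called in all 3, against 21.7% elsewhere, 30.7% in 2 and 40.4% in 1. Without replicate 1 the share called in both remaining lists was 57.5%, against 56.6% elsewhere, so little of that difference was left. Bases called in all 3 occurred in 623 of 3940 strand-specific 10-kb windows, with a median of 70 nt in such a window. The 62 windows with the most held 36.6% of them.

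The window with the most was chr19:9670001-9680000 on the minus strand, with 1515 nt called in all 3 and 29, 34 and 28 sites in replicates 1, 2 and 3. Its sites had low scores, with median percentiles of 14.6, 8.69 and 7.06. The adjoining window chr19:9680001-9690000, on the same strand, had 1010 nt from 20, 20 and 24 sites with median percentiles of 52.7, 79.4 and 82.2. Nearby chr19:9770001-9780000, again on the minus strand, had 1395 nt from 23, 21 and 19 sites with high percentiles of 76.6, 81.6 and 81.0. Bin 10 therefore held 3 of the 5 leading windows. Windows close together, all chosen for bases called in 3 replicates, lay at low and high scores.

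The remaining pair lay in bin 9. On the minus strand, chr19:8020001-8030000 had 1265 nt from 16, 21 and 20 sites, with percentiles of 40.5, 7.93 and 7.77. On the plus strand, chr19:8520001-8530000 had 665 nt from 14, 25 and 24 sites, with percentiles of 52.1, 39.6 and 15.04. The former window thus had low scores in replicates 2 and 3. Its shared bases are what it was chosen for, and recurrence of its single sites was not counted.

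The highest-scoring combined sites were scattered over the arm. The top 1% of the combined list included 78 arm sites in 18 of the 20 bins, 17 of them in bin 10, with LOD scores from 17.5 to 24.2 and a median width of 85 nt. They were 1.56% of the arm's sites, against 0.996% elsewhere, 1.46% on the rest of chromosome 19 and 1.42% on chromosome 17. All 78 were found in all 3 replicate lists and overlapped an interval of the p-filtered list. The score comes from the same libraries, so this is largely built in. The matching shares for the top 1% elsewhere are not given here. In the top 20% elsewhere, a looser cut, 76.3% were in all 3 lists and 95.9% were kept, against 82.1% and 95.4% on the arm. The highest arm site was chr19:3195551-3195640 on the plus strand, with a combined LOD of 24.2. Its percentiles were 83.2, 99.4 and 100.0 in replicates 1, 2 and 3. Next was chr19:12690901-12691000 on the minus strand with 23.1, which had percentiles of 99.3, 99.5 and 100.0. It lay within the long minus-strand run of bin 13.

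The third, chr19:11174181-11174270 on the plus strand with 23.0, had percentiles of 99.4, 99.5 and 100.0. Replicate 1 gave chr19:15523301-15523375, minus strand, combined LOD 22.7, a percentile of 88.6 and the others 100.0 each. The site chr19:1273761-1273860, plus strand, combined LOD 22.6, had percentiles of 95.3, 99.5 and 99.9. These sites were near the top of every list except that replicate 1 placed chr19:3195551-3195640 and chr19:15523301-15523375 lower.

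The other 3 of the leading 8 had combined LOD scores of 21.6. At chr19:9756511-9756720 on the minus strand, a site of 210 nt, the percentiles were 78.0, 99.3 and 99.9. At chr19:14594266-14594305 on the minus strand they were 99.5, 98.1 and 96.3, and the 3 replicates gave identical ends for this 40-nt site. At chr19:16241376-16241485 on the plus strand they were 98.97, 100.0 and 97.6. Replicate 1 gave the lowest percentile at 6 of these 8 sites and replicate 3 at the other two.

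Sites missing from a replicate scored lower. The highest combined site not found in all 3, chr19:2824986-2825020 on the plus strand, had 17.3 and was in replicates 1 and 2. The highest found in none, chr19:12706766-12706785 on the minus strand, had 8.25 and was 20 nt wide. Both were chosen after their values were seen.

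The share of sites kept by the authors' p filter rose with the number of replicate lists holding them, on the arm as elsewhere. An interval of the p-filtered list overlapped 2801 of the arm's 4995 combined sites, or 56.1%, with the same kind of interval from 54.7 to 57.4. Of the whole list, 52.3% was overlapped. The share was 54.3% on the rest of chromosome 19, 56.5% on chromosome 17 and 49.0% on chromosomes 4 and 13. A share above the whole list's was therefore not particular to the arm. Of the arm's sites in none of the replicate lists 9.16% were kept (51 sites), and of those in 1 list 24.0% (406 sites). For sites in 2 and in 3 lists the shares were 70.6% (863 sites) and 97.4% (1481 sites). Elsewhere these shares were 10.5%, 24.2%, 66.5% and 98.1%, so for a given number of lists the arm was close to the rest in all but sites in 2 lists. Kept sites were trimmed: the filtered intervals covered 70.0% of the bases of the arm's kept sites, against 67.0% elsewhere. The same ends before and after were found for 541 sites, 19.3% of those kept, against 17.4% elsewhere. By bin the kept share ran from 48.6% in bin 7 to 64.6% in bin 20, and 4 bins lay below the whole list's share.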

How the data were processed

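Immunoprecipitated RNA fragments of 3 HuR samples were analysed as 5 deposited site lists, 1 per replicate and 2 combined lists. Sample titles gave the group and replicate number. The submitters' processing notes name cutadapt 1.0, TopHat2 2.0.8 and the build hg19 (GRCh37). In each list the authors give every interval a LOD score; the way both were computed is not given in the sources at hand. All scores were above 0. Scores were converted to percentiles within each list, with ties at their mid-rank. The p-filtered list has its own score scale. Read depth is unknown.

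Python 3.11.15, numpy 2.4.6, pandas 2.3.3, scipy 1.17.1 and matplotlib 3.10.9 were used. Overlap meant at least 1 nt on the same strand. Gaps were taken between same-strand neighbours inside a stretch, and windows of 10 kb were counted on each strand. Lengths elsewhere ran to the last site of each chromosome. The code was tested on simulated data. Coordinates are 1-based on hg19.

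Named items were the 3 densest and 3 sparsest full 1-Mb bins, the 8 highest combined scores in all 3 replicate lists, and the 5 windows with the most bases called in all 3. The arm, measures and lists were chosen with earlier results of these data known. The part of the rule on genes was not run, because the annotation at hand is of another build. Alternatives were a LOD score above 2, equal numbers of top sites, 50% overlap, other compared stretches, each replicate left out, the arm without its first Mb and, added after seeing the data, without its densest bin or its 3 densest full bins.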

Additional observations from a re-analysis of the deposited data

How the results depend on the processing

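Of 74 alternative values for 10 measures, 52 stayed within the replicate or counting spread, 19 moved and 3 reversed. For the recurrence difference the SD of 9.61 exceeded the value of 5.54. All its alternatives therefore counted as within, also the 0.581 without replicate 1, so the 52 is no measure of firmness there. The reversals were comparisons with other stretches: the density ratio was 0.681 against chromosome 17 and 0.813 against the rest of chromosome 19, and the ratio of median strand runs, 0.783 against the rest of the genome, was 1.08 against chromosome 17. The gap ratio was 1.88 with a LOD score above 2, 2.12 with equal numbers of top sites, 1.92 against the rest of chromosome 19 and 2.10 without the densest bin. The median LOD percentile was 52.7 with a score above 2 and 53.1 with equal numbers, where the median width difference was -1.67 nt. Bases in all replicates came to 28.3% with a score above 2 (elsewhere 21.1%) and 26.4% with equal numbers (elsewhere 22.5%). With 1 replicate left out they came to 34.6% to 57.5% (elsewhere 25.7% to 56.6%). Combined sites in every list came to 20.9% at 50% overlap (elsewhere 13.3%) and 32.0% to 51.6% with 1 replicate left out. Leaving out replicate 1 ended the latter excess, with 51.2% elsewhere. The p-filtered share was 48.5% when at least 50% of a site had to be kept (elsewhere 43.9%). With a score above 2 it was 61.6% (elsewhere 55.8%). The ratio of densest to sparsest bin was 21.8 in bins of 500 kb. Fewer lists to match raise shares by construction; for the other shifts the cause was not tested. No paired analysis was possible between HuR and serum samples, because only HuR lists were analysed; the arm and the rest were compared within each replicate. With depth unknown, an absent site cannot be told from an undersampled one, and 3 replicates allow no p below 0.25.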
